A study of Homo sapiens with 9 samples.

Results

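The response that both ACSS2 knockouts of PANC-1 cells had in common comprised 2061 genes of the 14142 that averaged at least 1 CPM (counts per 1000000 library counts, with TMM scaling) in the 3 control libraries. A gene was a member if its CPM in all 6 knockout libraries lay on the same side of all 3 control values. Of the 58735 genes in the deposited table, 1030 were higher by this rule and 1031 were lower, which is 7.28% and 7.29% of the genes at the control floor and 14.6% together. The members were chosen by these knockout and control values, so their differences from the controls are given as a description, with no test. PANC-1 is an established human pancreatic carcinoma line. The titles put 3 libraries each in the groups ACSS2-KO-3, ACSS2-KO-2 and NC, and no other allele, agent or time is labelled. The treatment labels of the knockout libraries instead count from ACSS2-KO up to ACSS7-KO, so the titles were used. The sources do not state what NC or the final 2 and 3 stand for, nor whether a knockout is a clone, a guide or a pool. Whether libraries of 1 group are separate cultures is not stated, and the p-values may measure technical spread only.

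ACSS2 joins acetate to coenzyme A in the cytosol and the nucleus. Its product, acetyl-CoA, feeds fatty acid and sterol synthesis and is the acetyl donor for histones and other proteins. Tumour cells short of oxygen or lipid are known to draw on acetate in this way. BCAT1, which the title of the series sets beside ACSS2, is the cytosolic aminotransferase of leucine, isoleucine and valine. The comparison asks which transcripts the knockouts moved in the same direction.

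Library totals ran from 14756572 to 17457190 counts, so that 3 counts, the limit that a count of 0 allows, equalled 0.171 to 0.205 CPM. Intervals and floors of this kind cover counting error only. Of 13 ductal and carcinoma markers, 7 reached the control floor, among them KRT8, KRT18, KRT19 and SOX9. CFTR had no count in any library. None of 18 acinar and islet markers reached the floor, and INS, GCG and PNLIP had no count. Immune and endothelial markers summed to 12.7 to 15.1 CPM in ACSS2-KO-3, 15.0 to 20.4 CPM in ACSS2-KO-2, against 13.2 to 15.4 CPM in NC over 14 genes. In bulk RNA, fewer cells with a transcript and less transcript per cell cannot be told apart.

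The targeted gene was a lower member. ACSS2 (chr20:34872146-34927962, GRCh38) had 7.18, 8.56 and 8.49 CPM in ACSS2-KO-3, 15.1, 14.6 and 12.4 CPM in ACSS2-KO-2, against 33.3, 30.6 and 28.2 CPM in NC. As the rule requires, the knockout and control groups did not overlap, and the ACSS2-KO-3 libraries lay below the ACSS2-KO-2 libraries. Its log2 difference from NC was -1.93 for ACSS2-KO-3 and -1.13 for ACSS2-KO-2, so transcript remained in both knockouts. A deletion that leaves the transcript in place would not be seen in these counts. BCAT1 (chr12:24810022-24949459) had 1.37, 1.64 and 1.78 CPM in ACSS2-KO-3, 7.37, 11.2 and 9.68 CPM in ACSS2-KO-2, against 20.4, 20.03 and 17.4 CPM in NC. Each ACSS2-KO-3 library was far below each ACSS2-KO-2 library, and the difference between the knockouts was -2.55 ± 0.19 (log2, SE), with an edgeR adjusted p of 4.51e-12. BCAT2, the mitochondrial aminotransferase, was no member and had 51.2, 44.3 and 49.7 CPM in ACSS2-KO-3, 47.1, 43.9 and 41.2 CPM in ACSS2-KO-2, against 45.9, 42.6 and 42.3 CPM in NC. Its values overlapped between all 3 groups. With offsets for GC content and length the BCAT2 difference between the knockouts was -0.22 (log2, edgeR adjusted p = 0.00494).

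A RefSeq start of each of these genes is shown because the study turns on this pair. Both windows lie inside the gene spans given above, so neither start is the outermost annotated start of the counted gene. The 250 bases before each RefSeq start (GRCh38.p14) were taken, for ACSS2 from chr20:34876362-34876611 on the plus strand and for BCAT1 from chr12:24902901-24903150 on the minus strand. Capitals mark matches, on either strand, to 8 short motifs: AP-1 (TGANTCA), the CRE motif (TGACG), the E-box (CACGTG), the GC box (GGGCGG), the CCAAT box (CCAAT), the TATA box (TATAAA), the hypoxia core (ACGTG) and the ETS core (GGAAGT). The hypoxia core lies inside the E-box, and some CRE motifs overlap it. ACSS2 held 3 GC boxes and 1 CRE motif, and BCAT1 held 1 CCAAT box. A match describes letters and is not a bound site.
ACSS2: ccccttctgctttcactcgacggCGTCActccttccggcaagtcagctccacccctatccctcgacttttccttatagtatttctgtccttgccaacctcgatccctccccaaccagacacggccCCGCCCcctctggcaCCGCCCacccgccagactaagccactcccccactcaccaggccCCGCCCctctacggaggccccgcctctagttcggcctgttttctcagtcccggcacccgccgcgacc
BCAT1: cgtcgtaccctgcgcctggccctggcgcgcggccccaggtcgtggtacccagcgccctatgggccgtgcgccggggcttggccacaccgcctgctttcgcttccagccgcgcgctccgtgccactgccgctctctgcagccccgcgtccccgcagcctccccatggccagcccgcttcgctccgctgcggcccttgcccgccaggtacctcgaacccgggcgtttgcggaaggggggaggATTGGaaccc

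Most members differed little from NC in at least 1 knockout. Ranked by the smaller of the 2 log2 differences, the median was 0.17 for higher members and 0.27 for lower members, against 0.09 for all genes at the floor without regard to direction. A smaller difference of at least 1.5-fold was reached by 39 higher and 136 lower members, and one of at least 2-fold by 5 and 27. By contrast, 808 higher and 504 lower members stayed under 1.2-fold in at least 1 knockout. The median higher member differed from NC by 0.57 for ACSS2-KO-3 and 0.17 for ACSS2-KO-2, and the median lower member by -0.72 for ACSS2-KO-3 and -0.29 for ACSS2-KO-2. Summed over the higher members, levels were 140674 CPM in ACSS2-KO-3, 106227 CPM in ACSS2-KO-2, against 95468 CPM in NC. Summed over the lower members, they were 44576 CPM in ACSS2-KO-3, 56233 CPM in ACSS2-KO-2, against 65283 CPM in NC. All genes at the floor summed to 1073970 CPM in ACSS2-KO-3, 958499 CPM in ACSS2-KO-2, against 963442 CPM in NC with TMM scaling. The number of members rests on single libraries: without NC replicate 3, 1634 genes would be higher and 1610 lower.

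**Figure D1:**
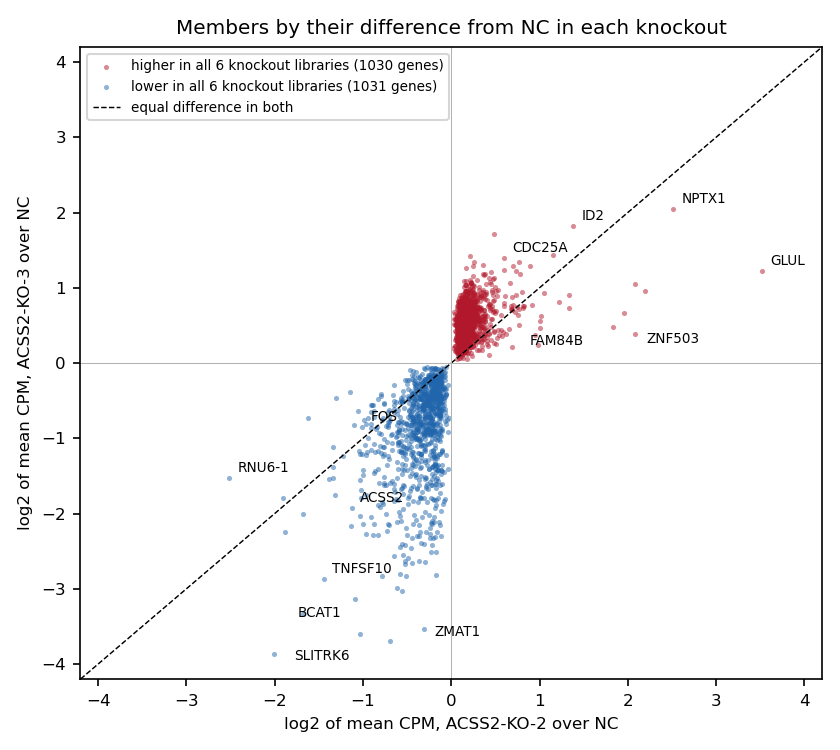
Each point is 1 of the 2061 members, with the log2 ratio of mean CPM over NC in ACSS2-KO-2 on the horizontal axis and in ACSS2-KO-3 on the vertical axis. Most points lie farther from 0 on the vertical axis than on the horizontal one, while GLUL, ZNF503 and FAM84B lie to the right of the dashed line of equal difference.

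Among the 12 higher members with the largest smaller difference were secreted neuronal and neuroendocrine proteins. NPTX1, a secreted pentraxin of synapses (chr17:80467148-80477843), had 6.39, 5.89 and 7.53 CPM in ACSS2-KO-3, 10.5, 8.402 and 8.599 CPM in ACSS2-KO-2, against 2.06, 1.55 and 1.19 CPM in NC. The rule requires the lowest knockout value to exceed the highest NC value, and here the gap was wide. VGF, a neuroendocrine secretory precursor, had 18.3, 15.8 and 20.3 CPM in ACSS2-KO-3, 13.2, 12.9 and 14.9 CPM in ACSS2-KO-2, against 6.73, 7.95 and 9.22 CPM in NC. GAL, the precursor of the neuropeptide galanin, had 2.94, 3.399 and 2.53 CPM in ACSS2-KO-3, 5.31, 6.63 and 6.25 CPM in ACSS2-KO-2, against 1.31, 1.55 and 1.43 CPM in NC. All GAL values of ACSS2-KO-2 lay above all values of ACSS2-KO-3. ID2, an inhibitor of basic helix-loop-helix transcription factors, had 5.48, 5.22 and 5.54 CPM in ACSS2-KO-3, 4.97, 3.87 and 3.19 CPM in ACSS2-KO-2, against 1.99, 1.49 and 1.13 CPM in NC. Its knockout groups adjoined each other without a value in the NC range, as the rule requires. NC means lay near the floor for NPTX1 (1.60 CPM), GAL (1.43 CPM) and ID2 (1.54 CPM).

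GLUL, glutamine synthetase (chr1:182381704-182392206), had 2.09, 2.12 and 3.35 CPM in ACSS2-KO-3, 13.2, 12.01 and 12.1 CPM in ACSS2-KO-2, against 0.934, 1.42 and 0.893 CPM in NC. The knockouts differed by -2.31 ± 0.17 (log2, SE; edgeR adjusted p = 6.33e-12), with all 3 ACSS2-KO-3 values below all 3 ACSS2-KO-2 values. TRIP6, a LIM-domain protein of focal adhesions, had 1.44, 2.12 and 2.33 CPM in ACSS2-KO-3, 4.51, 4.33 and 4.99 CPM in ACSS2-KO-2, against 0.8097, 0.969 and 1.25 CPM in NC. SERPINE2, an extracellular inhibitor of serine proteases, had 2.09, 1.94 and 1.92 CPM in ACSS2-KO-3, 1.54, 1.904 and 3.01 CPM in ACSS2-KO-2, against 1.06, 1.23 and 0.833 CPM in NC. ADCY1, a calcium-stimulated adenylyl cyclase, had 2.81, 2.73 and 3.902 CPM in ACSS2-KO-3, 3.43, 3.94 and 5.35 CPM in ACSS2-KO-2, against 1.68, 1.87 and 1.49 CPM in NC. MAN1A1, a Golgi mannosidase of N-glycan trimming, had 4.697, 5.95 and 5.202 CPM in ACSS2-KO-3, 5.71, 7.02 and 8.299 CPM in ACSS2-KO-2, against 2.93, 3.42 and 2.68 CPM in NC. In each of these genes the knockout values cleared the NC range, as the rule requires of every member. NC means lay near the floor for GLUL (1.08 CPM), TRIP6 (1.01 CPM), SERPINE2 (1.04 CPM) and ADCY1 (1.68 CPM), so these levels rest on few reads. COL3A1, a chain of type III collagen, had 3.98, 4.55 and 4.52 CPM in ACSS2-KO-3, 3.43, 4.14 and 3.19 CPM in ACSS2-KO-2, against 2.12, 1.16 and 1.55 CPM in NC. COL3A1 is also 1 of 9 fibroblast markers. The whole list summed to 5.55 to 8.62 CPM in ACSS2-KO-3, 5.17 to 7.29 CPM in ACSS2-KO-2, against 3.30 to 3.92 CPM in NC, with LUM and FAP at 0 counts throughout and DCN at a mean of at most 0.05 CPM. That sum includes COL3A1, which the rule chose. COL1A2 added 2.26 CPM in ACSS2-KO-3 replicate 3 and 0 in replicates 1 and 2, and PDPN averaged 0.77 CPM in ACSS2-KO-2 and 0 in NC. THY1, the other marker at the floor, went the other way. It averaged 1.22 CPM in ACSS2-KO-3, 1.53 CPM in ACSS2-KO-2, against 1.78 CPM in NC.

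The remaining pair of the 12 are less certain. CBSL is a near-identical copy of CBS on chromosome 21, and counting could split reads between them. It had 4.697, 2.18 and 2.33 CPM in ACSS2-KO-3, 2.23, 2.17 and 2.65 CPM in ACSS2-KO-2, against 0.934, 1.42 and 1.43 CPM in NC. AL645608.7, a lincRNA, had 1.89, 1.64 and 2.33 CPM in ACSS2-KO-3, 2.399, 1.31 and 1.62 CPM in ACSS2-KO-2, against 1.06, 1.099 and 0.893 CPM in NC. How reads were assigned to strands is not given in the sources used here. Beside the higher members that lay farther from NC in ACSS2-KO-2, 41 genes with no count in any NC library and a mean of at least 1 CPM in ACSS2-KO-2 summed to 6.59 to 7.94 CPM in ACSS2-KO-3, 199 to 232 CPM in ACSS2-KO-2 and 0 in NC. Their part in these members was not tested.

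**Figure D2:**
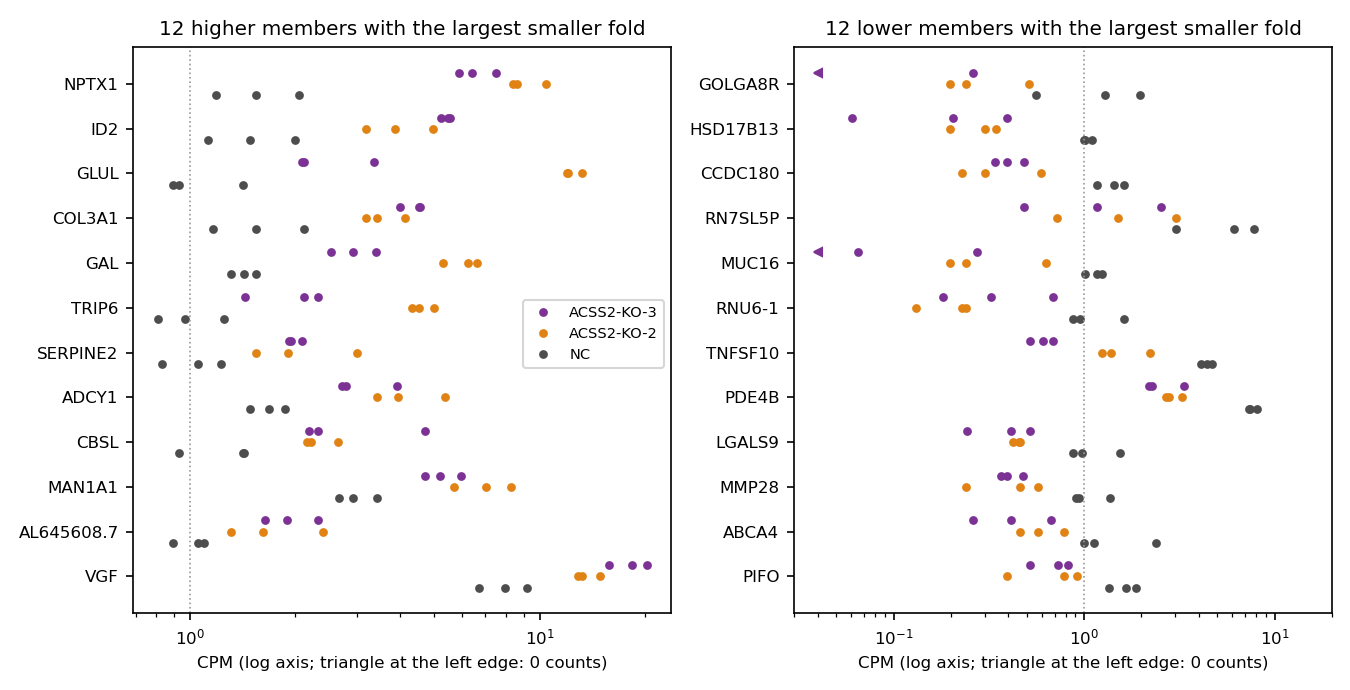
CPM in each library (log axis) for the 12 higher and the 12 lower members with the largest smaller difference, with ACSS2-KO-3 in purple, ACSS2-KO-2 in orange and NC in grey; the dotted line marks the floor of 1 CPM and triangles mark libraries at 0. In every row all 6 knockout points lie on the same side of the 3 NC points, as the rule requires. In NC most of the higher and most of the lower genes lie near the floor.

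Of the 12 lower members with the largest smaller difference, TNFSF10 and PDE4B had the most counts among protein-coding genes. TNFSF10 encodes TRAIL, a ligand of death receptors, and had 0.522, 0.607 and 0.685 CPM in ACSS2-KO-3, 2.23, 1.25 and 1.38 CPM in ACSS2-KO-2, against 4.11, 4.72 and 4.404 CPM in NC. Each ACSS2-KO-3 value was below each ACSS2-KO-2 value, with a difference of -1.43 ± 0.32 (log2, SE; edgeR adjusted p = 4.16e-04). PDE4B, a phosphodiesterase that degrades cyclic AMP, had 2.28, 2.18 and 3.35 CPM in ACSS2-KO-3, 2.798, 2.69 and 3.25 CPM in ACSS2-KO-2, against 7.41, 8.08 and 7.32 CPM in NC. Its knockout groups overlapped and lay below every NC value, as the rule requires, and their difference of -0.17 ± 0.20 did not pass (edgeR adjusted p = 0.48).

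The other protein-coding genes among these 12 had NC values near the floor. MUC16, a transmembrane mucin, had 0.0652, 0 and 0.274 CPM in ACSS2-KO-3, 0.628, 0.197 and 0.241 CPM in ACSS2-KO-2, against 1.25, 1.16 and 1.01 CPM in NC. HSD17B13, a lipid droplet protein of liver, had 0.391, 0.0607 and 0.205 CPM in ACSS2-KO-3, 0.343, 0.197 and 0.301 CPM in ACSS2-KO-2, against 0.997, 1.099 and 1.01 CPM in NC. MMP28, a secreted metalloproteinase, had 0.391, 0.364 and 0.479 CPM in ACSS2-KO-3, 0.571, 0.4595 and 0.241 CPM in ACSS2-KO-2, against 0.934, 0.905 and 1.37 CPM in NC. LGALS9, galectin-9, had 0.522, 0.243 and 0.411 CPM in ACSS2-KO-3, 0.457, 0.4595 and 0.421 CPM in ACSS2-KO-2, against 0.872, 0.969 and 1.55 CPM in NC. PIFO, a protein of primary cilia, had 0.522, 0.728 and 0.821 CPM in ACSS2-KO-3, 0.914, 0.394 and 0.782 CPM in ACSS2-KO-2, against 1.87, 1.36 and 1.67 CPM in NC. These levels rest on few reads, and no knockout library reached the NC range, as the rule requires. CCDC180 had 0.391, 0.486 and 0.342 CPM in ACSS2-KO-3, 0.228, 0.591 and 0.301 CPM in ACSS2-KO-2, against 1.62, 1.16 and 1.43 CPM in NC, and ABCA4, a lipid transporter of photoreceptors, had 0.261, 0.668 and 0.411 CPM in ACSS2-KO-3, 0.571, 0.4595 and 0.782 CPM in ACSS2-KO-2, against 0.997, 2.39 and 1.13 CPM in NC. GOLGA8R belongs to a golgin family of near-identical copies, RN7SL5P is a copy of the signal recognition particle RNA, and RNU6-1 is 1 of many U6 copies, so their values are uncertain. GOLGA8R had 0.261, 0 and 0 CPM in ACSS2-KO-3, 0.514, 0.197 and 0.241 CPM in ACSS2-KO-2, against 0.561, 1.29 and 1.96 CPM in NC and was the only lower member that the count filter kept out of the test.

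The immediate early genes, which growth factors and stress induce within minutes, were divided. Of 20 at the floor, 4 were higher and 4 lower members, against 7.28% and 7.29% of all genes. FOS, a subunit of AP-1 (chr14:75278774-75282230), had 32.6, 27.7 and 27.1 CPM in ACSS2-KO-3, 26.3, 25.1 and 26.7 CPM in ACSS2-KO-2, against 57.7, 49.8 and 49.9 CPM in NC. Both knockouts lay near the same level, well below NC, and they were not separated by the test (0.16 ± 0.08, log2, SE; edgeR adjusted p = 0.11). EGR1, a zinc finger factor (chr5:138465490-138469315), had 18.9, 20.8 and 18.9 CPM in ACSS2-KO-3, 19.9, 15.8 and 21.4 CPM in ACSS2-KO-2, against 36.5, 36.4 and 34.2 CPM in NC. Its knockouts overlapped, with a difference of 0.03 ± 0.10 (edgeR adjusted p = 0.78). With offsets for GC content and length EGR1 was lower in ACSS2-KO-3, at a log2 difference of -0.29 (edgeR adjusted p = 0.0128). FOSB had 4.89, 4.49 and 4.18 CPM in ACSS2-KO-3, 4.34, 2.76 and 3.67 CPM in ACSS2-KO-2, against 6.91, 6.66 and 6.31 CPM in NC. The JUNB means were 85.99 ± 0.568 CPM in ACSS2-KO-3, 79.2 ± 4.7 CPM in ACSS2-KO-2, against 101 ± 7.74 CPM in NC (SD, n = 3 each). On the other side stood FOSL1, another AP-1 subunit, at 336 ± 11.4 CPM in ACSS2-KO-3, 174 ± 8.45 CPM in ACSS2-KO-2, against 158 ± 4.01 CPM in NC, and SRF, the factor that binds the serum response elements of such genes, at 118 ± 4.51 CPM in ACSS2-KO-3, 79.03 ± 2.63 CPM in ACSS2-KO-2, against 71.03 ± 4.13 CPM in NC. The zinc finger factors KLF2 and KLF4 were the other higher members. With offsets the list held 3 higher and 6 lower members, and with plain CPM 5 and 7.

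The promoters of FOS (chr14:75278578-75278827, plus strand) and EGR1 (chr5:138465229-138465478, plus strand) are shown because these genes lay farthest from NC of the 4 lower ones. FOS held a TATA box that starts at -33, a CRE motif at -64 and 1 GC box, counted back from the RefSeq start. The FOS window runs past the start of the gene span given above. EGR1 held 2 CRE motifs, of which 1 overlaps a hypoxia core.
FOS: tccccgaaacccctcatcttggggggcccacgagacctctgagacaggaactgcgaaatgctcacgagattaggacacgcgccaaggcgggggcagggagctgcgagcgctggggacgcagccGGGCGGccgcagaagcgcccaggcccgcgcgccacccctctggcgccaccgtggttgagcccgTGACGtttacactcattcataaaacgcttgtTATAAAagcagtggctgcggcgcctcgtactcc
EGR1: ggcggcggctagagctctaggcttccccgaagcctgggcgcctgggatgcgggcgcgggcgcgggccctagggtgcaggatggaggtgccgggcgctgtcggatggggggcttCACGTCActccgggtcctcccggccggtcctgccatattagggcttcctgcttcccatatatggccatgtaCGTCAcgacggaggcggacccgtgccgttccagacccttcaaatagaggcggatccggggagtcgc

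Hypoxia targets, the genes that HIF factors induce when oxygen falls, held many lower members. Of 21 at the floor, 10 were lower and 0 higher, against 7.29% and 7.28% of all genes at the floor. The lower count was 11 with plain CPM and 10 with RLE factors. With offsets for GC content and length it was 9, of which 6 were the same genes and 3 had joined. BNIP3, a mitophagy receptor, had 62.3, 65.5 and 61.3 CPM in ACSS2-KO-3, 71.3, 68.7 and 71.5 CPM in ACSS2-KO-2, against 100.3, 97.5 and 96.2 CPM in NC. DDIT4, an inhibitor of mTORC1, had 54.5, 54.7 and 54.6 CPM in ACSS2-KO-3, 72.02, 70.2 and 68.7 CPM in ACSS2-KO-2, against 89.998, 94.3 and 106 CPM in NC. HILPDA, a lipid droplet protein that inhibits lipolysis, had 31.4, 28.3 and 33.1 CPM in ACSS2-KO-3, 38.8, 39.4 and 42.1 CPM in ACSS2-KO-2, against 54.2, 55.1 and 54.2 CPM in NC. In all 3 genes the knockouts were also apart from each other, beside the separation from NC that the rule requires. DDIT4 was lower in ACSS2-KO-3 than ACSS2-KO-2, with a difference of -0.37 ± 0.06 (log2, SE; edgeR adjusted p = 1.80e-05), and so was HILPDA, with -0.38 ± 0.07 (edgeR adjusted p = 5.86e-05). The BNIP3 difference of -0.16 ± 0.06 had an edgeR adjusted p of 0.018, which was 0.0537 to 0.0692 when ACSS2-KO-2 replicate 1 or 3 or ACSS2-KO-3 replicate 1 or 3 was left out.

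Smaller differences in ACSS2-KO-2 were seen for the other 7. VEGFA, the vascular growth factor, differed from NC by -0.47 for ACSS2-KO-3 and -0.09 for ACSS2-KO-2 on the log2 scale. PLOD2, a collagen lysyl hydroxylase, differed by -1.36 for ACSS2-KO-3 and -0.10 for ACSS2-KO-2. MXI1, a MYC antagonist, differed by -1.04 for ACSS2-KO-3 and -0.22 for ACSS2-KO-2. BNIP3L, KDM3A, P4HA1 and INSIG2 completed the group. VEGFA, PLOD2, P4HA1 and INSIG2 left it with offsets, where their ACSS2-KO-3 differences from NC were -0.70 for VEGFA, -0.31 for PLOD2, -0.08 for P4HA1 and 0.01 for INSIG2. The list's median difference was -0.58 for ACSS2-KO-3 and -0.10 for ACSS2-KO-2, against -0.02 and -0.01 for all genes at the floor. Of the 21 genes, 15 were lower in ACSS2-KO-3 than ACSS2-KO-2 by the edgeR test, 3 were higher, and the rest did not pass, against 30.6% and 34.6% of tested genes at the floor.

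Glycolysis genes held 3 lower and 0 higher members among 20, against 7.29% and 7.28% of all genes at the floor. ALDOC, an aldolase, had 5.28, 4.49 and 3.696 CPM in ACSS2-KO-3, 8.11, 8.73 and 8.54 CPM in ACSS2-KO-2, against 13.5, 11.7 and 13.5 CPM in NC. PFKFB4, which sets fructose 2,6-bisphosphate, had 14.4, 15.3 and 14.9 CPM in ACSS2-KO-3, 21.4, 18.4 and 20.9 CPM in ACSS2-KO-2, against 31.4, 27.8 and 33.3 CPM in NC. ENO2, an enolase, had 35.6, 32.96 and 35.6 CPM in ACSS2-KO-3, 33.7, 31.7 and 31.6 CPM in ACSS2-KO-2, against 45.8, 39.7 and 41.96 CPM in NC. Each of the 3 had knockout values below NC throughout, as the rule requires of a lower member. The list's median was 0.28 for ACSS2-KO-3 and -0.10 for ACSS2-KO-2, opposite in sign, so the 3 do not describe the pathway as a whole.

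The BNIP3 promoter (chr10:131981924-131982173, minus strand) is shown as that of a lower hypoxia target. It held 1 E-box, which contains a hypoxia core on each strand, 6 GC boxes and 1 CCAAT box. Of all promoters compared, 23.2% held a hypoxia core.
BNIP3: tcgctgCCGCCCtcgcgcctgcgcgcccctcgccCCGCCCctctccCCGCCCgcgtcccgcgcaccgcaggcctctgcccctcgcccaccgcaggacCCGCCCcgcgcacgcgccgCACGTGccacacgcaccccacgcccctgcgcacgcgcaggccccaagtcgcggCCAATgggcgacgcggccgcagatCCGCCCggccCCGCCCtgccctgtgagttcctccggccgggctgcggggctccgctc

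DNA replication and cell cycle genes were higher members in every case where they were members. Of 39 replication genes at the floor, 12 were higher and 0 lower, against 7.28% and 7.29% of all genes at the floor. Of 37 cell cycle genes, 11 were higher and 0 lower. These counts ran from 12 to 16 and from 11 to 13 under the scaling alternatives, always with 0 lower. Of the 37 cell cycle genes, 20 were higher in ACSS2-KO-3 than ACSS2-KO-2 by the edgeR test and 14 were lower, against 34.6% and 30.6% of tested genes at the floor. The list summed to 5586 to 5877 CPM in ACSS2-KO-3, 5739 to 5934 CPM in ACSS2-KO-2, against 5430 to 5460 CPM in NC, so the knockouts' sums overlapped. The sum over all genes at the floor was 1073970 CPM in ACSS2-KO-3, 958499 CPM in ACSS2-KO-2, against 963442 CPM in NC. CDC25A, a phosphatase that activates cyclin-dependent kinases (chr3:48157146-48188402), had 53.6, 52.9 and 59.4 CPM in ACSS2-KO-3, 31.5, 31.1 and 33.1 CPM in ACSS2-KO-2, against 20.9, 21.97 and 20.2 CPM in NC. It was higher in ACSS2-KO-3 than ACSS2-KO-2 by 0.79 ± 0.07 (log2, SE; edgeR adjusted p = 2.22e-10), with no overlap between the knockouts. CDC20, an activator of the anaphase-promoting complex, had 393, 381 and 415 CPM in ACSS2-KO-3, 232, 235 and 222 CPM in ACSS2-KO-2, against 187, 196 and 200.2 CPM in NC. E2F2, a transcription factor of S-phase genes, had 37.7, 36.9 and 35.7 CPM in ACSS2-KO-3, 20.05, 20.9 and 20.9 CPM in ACSS2-KO-2, against 17.7, 17.4 and 17.7 CPM in NC. PLK1, AURKA, CCNA2, CCNB2, TPX2, KIF20A, CCND3 and E2F1 were the other cell cycle members. PLK1, a mitotic kinase, differed from NC by 1.04 for ACSS2-KO-3 and 0.17 for ACSS2-KO-2, and E2F1 by 0.89 for ACSS2-KO-3 and 0.16 for ACSS2-KO-2.

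The replication members covered licensing, helicase and polymerase. CDT1, which loads the MCM helicase, had 75.3, 73.1 and 87.3 CPM in ACSS2-KO-3, 47.6, 46.1 and 43.8 CPM in ACSS2-KO-2, against 39.99, 38.4 and 40.4 CPM in NC. POLD1, the catalytic subunit of polymerase delta, had 99.8, 97.8 and 94.4 CPM in ACSS2-KO-3, 64.6, 67.2 and 63.7 CPM in ACSS2-KO-2, against 51.3, 59.6 and 56.9 CPM in NC. MCM4, a helicase subunit, had 333, 331 and 345 CPM in ACSS2-KO-3, 229, 237 and 224 CPM in ACSS2-KO-2, against 200.1, 202 and 204 CPM in NC. In all 3 genes the knockouts were also apart from each other, beside the separation from NC that the rule requires. ACSS2-KO-3 was farther from NC than ACSS2-KO-2, as in 83.8% of all genes at the floor. Of the 6 subunits of the MCM2 to MCM7 helicase, MCM3, MCM4, MCM5 and MCM7 were members. ORC1, CDC6, CDC45, GINS2, MCM10 and FEN1 were the remaining ones. MCM3 had the smallest ACSS2-KO-2 difference of the 12, with log2 differences from NC of 0.70 for ACSS2-KO-3 and 0.08 for ACSS2-KO-2. POLD1 had the largest, with 0.80 for ACSS2-KO-3 and 0.22 for ACSS2-KO-2. The replication list's median was 0.54 for ACSS2-KO-3 and 0.09 for ACSS2-KO-2, and with offsets 0.43 and 0.08. Of the 39 genes, 31 were higher in ACSS2-KO-3 than ACSS2-KO-2 by edgeR, 2 were lower, and the rest did not pass, against 34.6% and 30.6% of tested genes at the floor.

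The CDC25A promoter (chr3:48188418-48188667, minus strand) is shown for the higher cell cycle members. It held 2 CCAAT boxes and 2 GC boxes.
CDC25A: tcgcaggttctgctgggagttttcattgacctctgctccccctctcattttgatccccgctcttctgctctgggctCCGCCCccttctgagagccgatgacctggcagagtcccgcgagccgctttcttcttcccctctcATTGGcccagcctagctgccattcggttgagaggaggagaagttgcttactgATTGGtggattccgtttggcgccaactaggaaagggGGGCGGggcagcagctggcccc

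**Figure D3:**
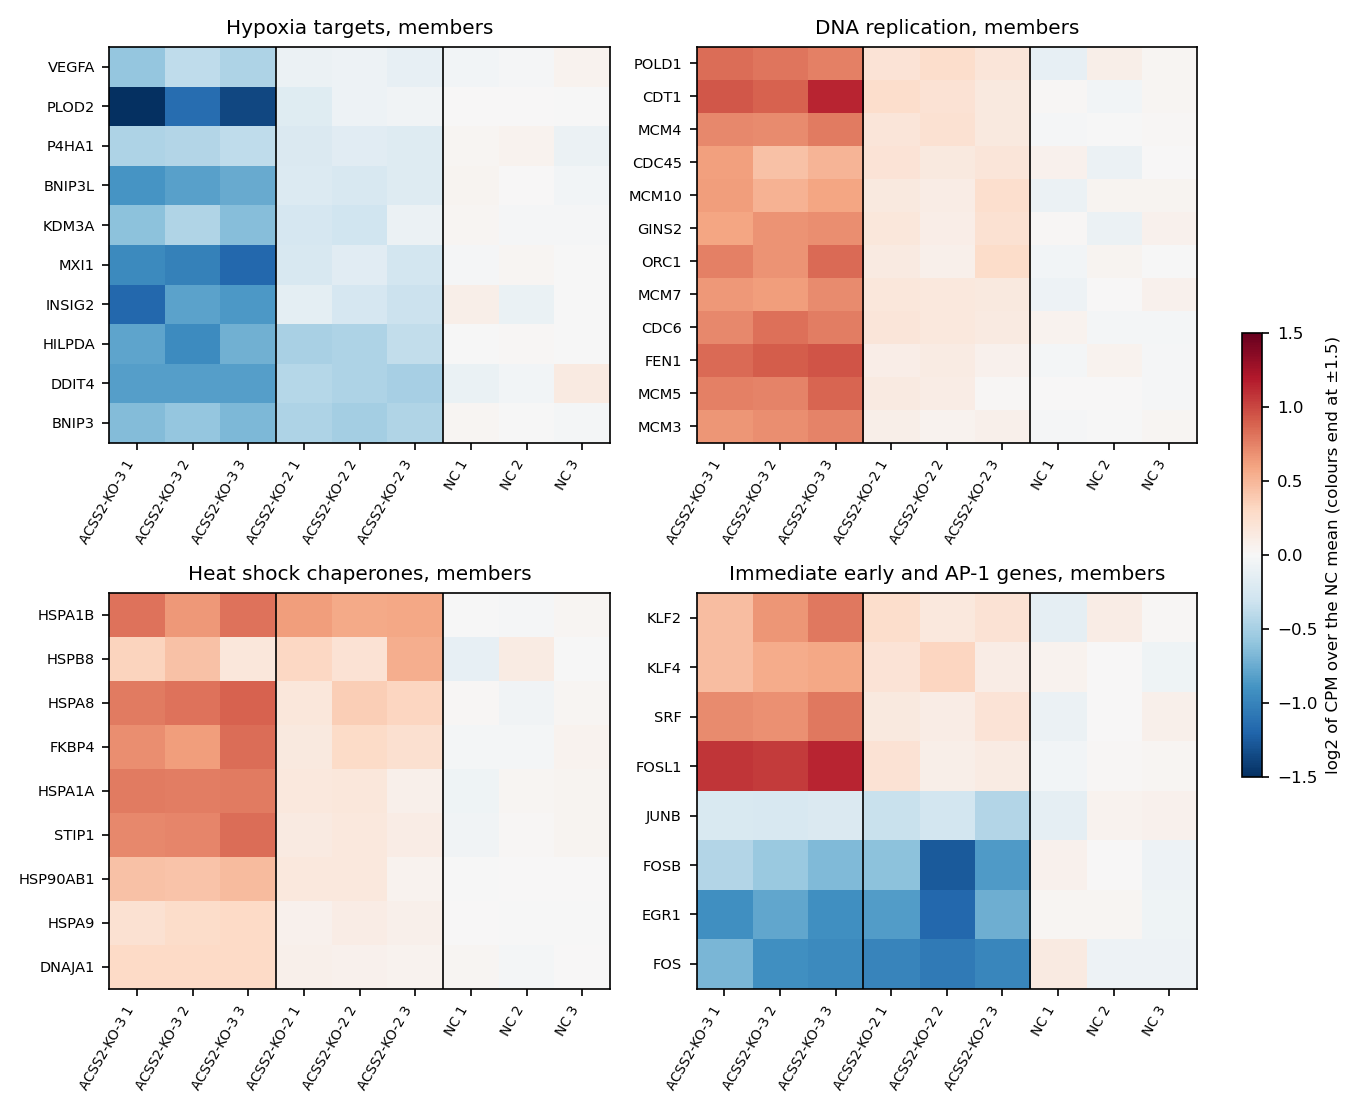
Log2 of CPM over the NC mean in each library for members of the hypoxia, DNA replication, heat shock and immediate early lists, with ACSS2-KO-3, ACSS2-KO-2 and NC from left to right. The hypoxia members are blue in all 6 knockout columns. The replication and heat shock members are red and, except for HSPB8, deeper in ACSS2-KO-3. FOS and EGR1 are about equally blue in both knockouts, and FOSB is paler in ACSS2-KO-3.

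Ribosome biogenesis, the making of ribosomes in the nucleolus, gave 9 higher and 0 lower members of 32. The higher count was 13 with plain CPM, 14 with RLE factors and 13 with offsets. RRS1, a ribosome assembly factor, had 55.98, 63.3 and 61.9 CPM in ACSS2-KO-3, 38.1, 41.7 and 39.6 CPM in ACSS2-KO-2, against 32.01, 32.6 and 32.3 CPM in NC. URB2, a nucleolar assembly factor, had 70.01, 67.2 and 80.98 CPM in ACSS2-KO-3, 40.9, 44.05 and 39.4 CPM in ACSS2-KO-2, against 33.01, 34.8 and 34.1 CPM in NC. BOP1, a factor of large subunit maturation, had 236, 221 and 264 CPM in ACSS2-KO-3, 142, 136 and 125 CPM in ACSS2-KO-2, against 112, 117 and 117 CPM in NC. In each gene the knockouts did not overlap, beside the separation from NC that the rule requires. POLR1B and POLR1E, subunits of RNA polymerase I, differed from NC by 0.67 for ACSS2-KO-3 and 0.17 for ACSS2-KO-2, and by 0.83 for ACSS2-KO-3 and 0.20 for ACSS2-KO-2. Of 50 cytosolic ribosomal proteins, 7 were higher and 1 was lower. Over all genes at the floor, 7.28% were higher and 7.29% lower members. RPL8 had 1521, 1528 and 1646 CPM in ACSS2-KO-3, 1201, 1201 and 1163 CPM in ACSS2-KO-2, against 1049, 1076 and 1108 CPM in NC, and RPS15 had 552, 559 and 584 CPM in ACSS2-KO-3, 467, 422 and 425 CPM in ACSS2-KO-2, against 386, 391 and 407 CPM in NC. RPL22, the lower one, had 119, 125 and 121 CPM in ACSS2-KO-3, 135, 127 and 123 CPM in ACSS2-KO-2, against 158, 138 and 136 CPM in NC. The list's median was only 0.15 for ACSS2-KO-3 and 0.01 for ACSS2-KO-2. None of the 13 protein-coding transcripts of the mitochondrial genome was a member, although 4 were lower with plain CPM.

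Both lists of chaperones, which help proteins fold, held higher members. Of 20 heat shock chaperones at the floor, 9 were higher and 0 lower, and of 20 chaperones of the endoplasmic reticulum (ER), 7 were higher and 0 lower. With offsets the heat shock list held 8 higher and 1 lower and the ER list 7 and 0. The shares over all genes at the floor were 7.28% higher and 7.29% lower. HSPA8, the constitutive HSC70, had 2473, 2534 and 2661 CPM in ACSS2-KO-3, 1626, 1862 and 1798 CPM in ACSS2-KO-2, against 1463, 1386 and 1476 CPM in NC. HSP90AB1, the constitutive HSP90, had 2889, 2869 and 2955 CPM in ACSS2-KO-3, 2373, 2376 and 2214 CPM in ACSS2-KO-2, against 2124, 2136 and 2130.4 CPM in NC. No library of ACSS2-KO-3 fell within the range of ACSS2-KO-2 for either gene, and both were higher in ACSS2-KO-3 (0.54 ± 0.05 and 0.32 ± 0.04, log2, SE; edgeR adjusted p = 7.07e-10 and 4.59e-07). HSPA1A and HSPA1B are near-identical copies of inducible HSP70, so their split is uncertain. HSPA1B had 80.8, 72.3 and 80.6 CPM in ACSS2-KO-3, 71.2, 68.5 and 68.6 CPM in ACSS2-KO-2, against 45.9, 45.4 and 46.8 CPM in NC. The co-chaperones STIP1, FKBP4 and DNAJA1, the mitochondrial HSPA9 and the small heat shock protein HSPB8 were the others, and HSPB8 left the members with offsets.

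In the ER, HSPA5, the chaperone BiP, had 971, 949 and 1012 CPM in ACSS2-KO-3, 843, 870.4 and 814 CPM in ACSS2-KO-2, against 748, 733 and 738 CPM in NC. SDF2L1, its cofactor, had 61.1, 59.2 and 70.8 CPM in ACSS2-KO-3, 37.5, 37.5 and 40.2 CPM in ACSS2-KO-2, against 32.3, 30.3 and 36.4 CPM in NC, and left the members with offsets. PDIA6, a disulfide isomerase, had 192, 189 and 202 CPM in ACSS2-KO-3, 166, 179 and 169.9 CPM in ACSS2-KO-2, against 144, 145 and 156 CPM in NC. HYOU1, PDIA4, MANF and CANX were the other 4, and HYOU1 differed from NC by 0.77 for ACSS2-KO-3 and 0.16 for ACSS2-KO-2. The ER list summed to 5985 to 6335 CPM in ACSS2-KO-3, 5256 to 5464 CPM in ACSS2-KO-2, against 4979 to 5058 CPM in NC. The heat shock list summed to 10573 to 10960 CPM in ACSS2-KO-3, 9027 to 9381 CPM in ACSS2-KO-2, against 8279 to 8528 CPM in NC. Neither list's sums overlapped between groups, but they include the members, which the rule chose to lie above NC. The sum over all genes at the floor was also higher in ACSS2-KO-3, at 1073970 CPM. It was 958499 CPM in ACSS2-KO-2, against 963442 CPM in NC. In the edgeR test 11 of the 20 heat shock genes were higher in ACSS2-KO-3 than ACSS2-KO-2 and 5 lower. Of the 20 ER genes, 13 were higher and 3 lower, against 34.6% and 30.6% of tested genes at the floor. By contrast, of 24 targets of ATF4, the factor of amino acid and ER stress, 3 were higher and 2 lower. With offsets for GC content and length 1 was higher and 5 lower. The ATF4 list's median ACSS2-KO-3 difference from NC was 0.07, and -0.22 with offsets. NUPR1 had 57.1, 56.2 and 57.8 CPM in ACSS2-KO-3, 58.7, 56.3 and 52.1 CPM in ACSS2-KO-2, against 82.03, 85.1 and 78.3 CPM in NC, and CHAC1, a glutathione-degrading enzyme, had 27.99, 33.3 and 33.9 CPM in ACSS2-KO-3, 30.3, 28.1 and 31.9 CPM in ACSS2-KO-2, against 36.8, 39.9 and 37.2 CPM in NC.

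**Figure D4:**
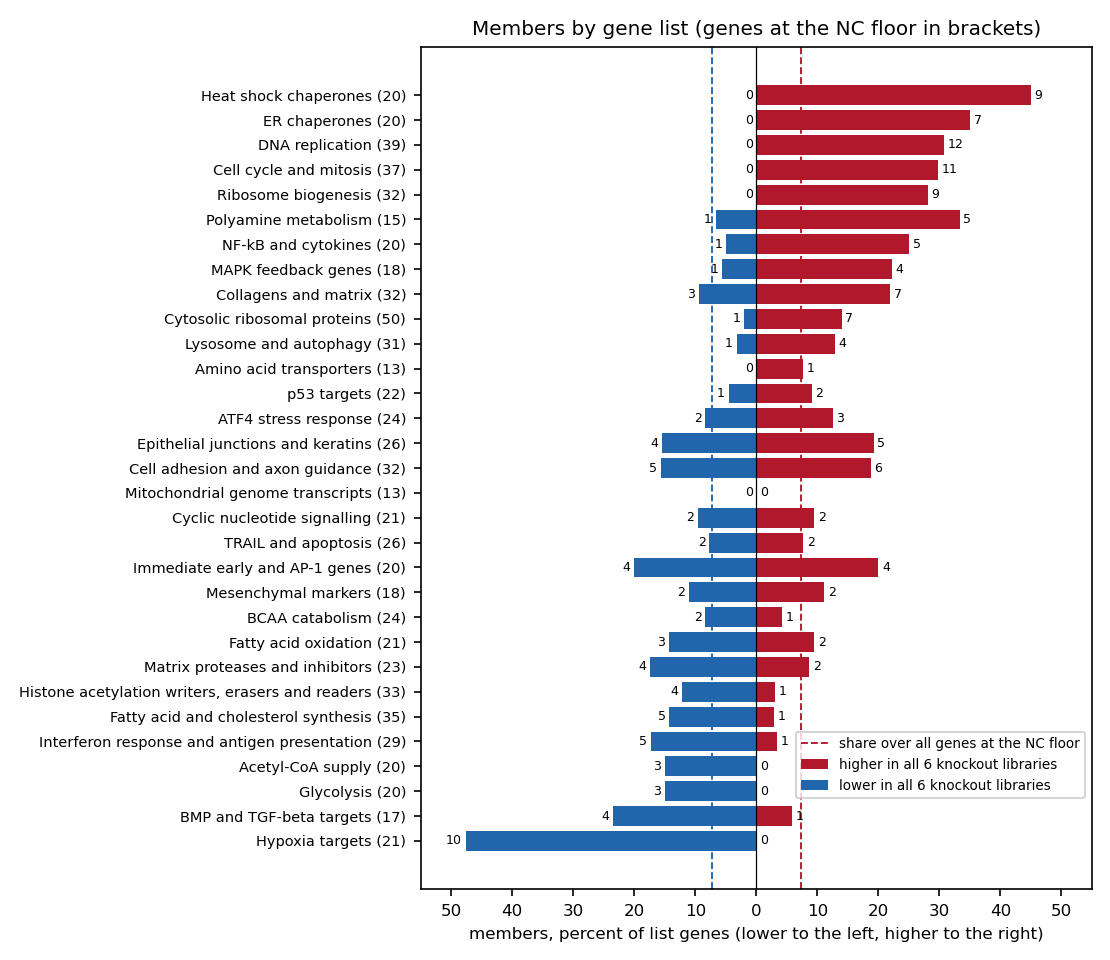
Members as a share of the genes at the NC floor in each list of at least 10 such genes, with lower members to the left and higher members to the right; numbers at the bars are counts and dashed lines mark the shares over all genes, 7.28% and 7.29%. Heat shock and ER chaperones lie farthest to the right and hypoxia targets farthest to the left.

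Among genes of acetyl-CoA supply, 3 of 20 were lower and 0 higher: ACSS2 itself and the kinases PDK1 and PDK4, which restrain pyruvate dehydrogenase. PDK1 had 9.26, 10.99 and 7.32 CPM in ACSS2-KO-3, 13.99, 15.2 and 16.96 CPM in ACSS2-KO-2, against 20.4, 19.97 and 17.97 CPM in NC. PDK4 had 4.83, 5.28 and 4.72 CPM in ACSS2-KO-3, 6.23, 6.302 and 5.05 CPM in ACSS2-KO-2, against 7.85, 6.397 and 6.78 CPM in NC. PDK4 left the members with offsets. Fatty acid and cholesterol synthesis gave 5 lower and 1 higher of 35, against 7.29% and 7.28% of all genes at the floor. SCD, the stearoyl-CoA desaturase, had 2862, 2651 and 2885 CPM in ACSS2-KO-3, 3228, 3446 and 3296 CPM in ACSS2-KO-2, against 4033, 4206 and 4225 CPM in NC. SREBF1, the regulator of lipid synthesis, was at 433 ± 19.5 CPM in ACSS2-KO-3, 423 ± 18.7 CPM in ACSS2-KO-2, against 495 ± 18.8 CPM in NC, and FADS2, a fatty acid desaturase, at 419.8 ± 15.3 CPM in ACSS2-KO-3, 344 ± 11.7 CPM in ACSS2-KO-2, against 469 ± 13.2 CPM in NC (SD, n = 3 each). HSD17B7 and INSIG2 were the other lower members. Of 24 genes of branched-chain amino acid catabolism, BCAT1 and MUT, methylmalonyl-CoA mutase, were lower and PCCB, a propionyl-CoA carboxylase subunit, was higher. MUT had 22.1, 23.2 and 21.1 CPM in ACSS2-KO-3, 33.6, 33.5 and 31.1 CPM in ACSS2-KO-2, against 35.9, 33.99 and 37.8 CPM in NC. PCCB had 62.4, 56.7 and 61.2 CPM in ACSS2-KO-3, 56.3, 59.1 and 63.9 CPM in ACSS2-KO-2, against 53.002, 54.5 and 54.6 CPM in NC, and its ACSS2-KO-3 difference was close to 0 with plain CPM. Fatty acid oxidation held 2 higher and 3 lower of 21, a mixed picture in which ECI1 was higher and ECI2, ETFDH and ACADM lower.

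Polyamine metabolism, which makes and degrades spermidine and spermine, gave 5 higher members and 1 lower of 15. Among all genes at the floor, 7.28% were higher and 7.29% lower. SAT1, the acetyltransferase that starts polyamine breakdown with acetyl-CoA, had 174, 177 and 177 CPM in ACSS2-KO-3, 346, 311 and 319 CPM in ACSS2-KO-2, against 461, 426 and 417 CPM in NC. SAT1 was lower in ACSS2-KO-3 than ACSS2-KO-2, with a difference of -0.88 ± 0.05 (log2, SE; edgeR adjusted p = 9.83e-14) and no overlap between the knockouts. SMOX, spermine oxidase, had 108, 106 and 107 CPM in ACSS2-KO-3, 89.8, 88.9 and 84.7 CPM in ACSS2-KO-2, against 73.2, 67.4 and 73.7 CPM in NC. DOHH, which completes the hypusine of eIF5A, had 55.1, 50.7 and 59.1 CPM in ACSS2-KO-3, 28.2, 30.8 and 30.1 CPM in ACSS2-KO-2, against 23.9, 25.8 and 27.02 CPM in NC. ODC1, ornithine decarboxylase, differed from NC by 0.78 for ACSS2-KO-3 and 0.15 for ACSS2-KO-2, and AMD1, which makes decarboxylated S-adenosylmethionine, by 0.27 for ACSS2-KO-3 and 0.21 for ACSS2-KO-2. MAT2A, which makes S-adenosylmethionine itself, was a lower member among the 3 with the highest NC level, at 1006, 971 and 920.2 CPM in ACSS2-KO-3, 1267, 1082 and 1150.1 CPM in ACSS2-KO-2, against 1589.8, 1619 and 1556 CPM in NC. Amino acid transporters held 1 member of 13, SLC36A1, at 25.97, 27.3 and 25.7 CPM in ACSS2-KO-3, 18.3, 20.02 and 19.9 CPM in ACSS2-KO-2, against 16.7, 18.2 and 17.6 CPM in NC.

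The collagens and other matrix genes gave 7 higher and 3 lower members of 32, against 7.28% and 7.29% of all genes at the floor. COL1A1, a chain of type I collagen, was lower at 69.3, 60.5 and 62.2 CPM in ACSS2-KO-3, 96.97, 99.1 and 88.2 CPM in ACSS2-KO-2, against 162, 173 and 182 CPM in NC. LAMA3, a laminin chain of epithelial basement membranes, was higher at 5.81, 5.95 and 6.64 CPM in ACSS2-KO-3, 5.997, 5.97 and 7.04 CPM in ACSS2-KO-2, against 3.36, 4.33 and 3.81 CPM in NC, with overlapping knockouts. COL4A2 differed from NC by 1.05 for ACSS2-KO-3 and 0.45 for ACSS2-KO-2, COL5A2 by 0.78 for ACSS2-KO-3 and 0.44 for ACSS2-KO-2 and COL6A1 by 0.37 for ACSS2-KO-3 and 0.55 for ACSS2-KO-2. TGFBI, a secreted matrix protein, was lower at 464, 413 and 447 CPM in ACSS2-KO-3, 546, 562 and 524 CPM in ACSS2-KO-2, against 657, 678 and 672 CPM in NC. Among proteases and inhibitors, 2 were higher and 4 lower of 23. With offsets for GC content and length 1 was higher and 6 lower. The BMP and TGF-beta targets below held 3 higher and 8 lower members with offsets. MMP2, gelatinase A, had 76.9, 72.95 and 83.4 CPM in ACSS2-KO-3, 60.4, 60.98 and 63.5 CPM in ACSS2-KO-2, against 114, 114 and 117 CPM in NC. MMP14, which activates MMP2, was at 7.04 ± 0.366 CPM in ACSS2-KO-3, 7.48 ± 0.3698 CPM in ACSS2-KO-2, against 9.18 ± 0.807 CPM in NC (SD, n = 3 each). Targets of BMP and TGF-beta signalling gave 1 higher and 4 lower of 17, with BMP4 at 24.7 ± 1.68 CPM in ACSS2-KO-3, 20.7 ± 2.51 CPM in ACSS2-KO-2, against 28.9 ± 0.469 CPM in NC and INHBA, an activin subunit, at 0.259 ± 0.113 CPM in ACSS2-KO-3, 0.695 ± 0.208 CPM in ACSS2-KO-2, against 1.14 ± 0.212 CPM in NC.

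Epithelial and mesenchymal genes went both ways. Of 26 epithelial genes, 5 were higher and 4 lower, against 7.28% and 7.29% of all genes at the floor. With offsets for GC content and length 4 were higher and 6 lower. DSP, desmoplakin, had 77.1, 83.1 and 68.9 CPM in ACSS2-KO-3, 59.9, 66.2 and 68.3 CPM in ACSS2-KO-2, against 43.2, 53.2 and 52.8 CPM in NC. DSC2, a desmosomal cadherin, had 23.1, 28.8 and 26.4 CPM in ACSS2-KO-3, 37.8, 38.8 and 43.1 CPM in ACSS2-KO-2, against 48.95, 49.4 and 50.7 CPM in NC, EPCAM was at 5.59 ± 0.366 CPM in ACSS2-KO-3, 8.45 ± 0.809 CPM in ACSS2-KO-2, against 9.31 ± 0.205 CPM in NC, and CLDN7 differed from NC by -0.51 for ACSS2-KO-3 and -0.26 for ACSS2-KO-2. KRT19 had 326, 309 and 349 CPM in ACSS2-KO-3, 339, 339 and 319 CPM in ACSS2-KO-2, against 294, 289 and 302 CPM in NC and left the members with offsets. Of 18 mesenchymal genes, AXL, a receptor tyrosine kinase, and FOXC2 were higher, and SNAI1, a repressor of E-cadherin, and S100A4 lower. AXL had 651, 579.5 and 686 CPM in ACSS2-KO-3, 368, 396 and 397 CPM in ACSS2-KO-2, against 326, 339.6 and 344 CPM in NC. SNAI1 had 8.87, 8.68 and 10.5 CPM in ACSS2-KO-3, 9.31, 9.26 and 8.84 CPM in ACSS2-KO-2, against 12.3, 11.6 and 11.3 CPM in NC. Of 32 adhesion and axon guidance genes, 6 were higher and 5 lower. EFNB2, an ephrin, had 8.09, 7.28 and 9.58 CPM in ACSS2-KO-3, 4.34, 4.46 and 6.01 CPM in ACSS2-KO-2, against 3.05, 4.01 and 3.75 CPM in NC. NRP2, a semaphorin and VEGF receptor, had 10.7, 8.92 and 9.24 CPM in ACSS2-KO-3, 7.02, 8.27 and 9.56 CPM in ACSS2-KO-2, against 16.8, 14.8 and 16.1 CPM in NC, and EFNA1 had 19.8, 18.1 and 20.5 CPM in ACSS2-KO-3, 24.3, 23.96 and 25.4 CPM in ACSS2-KO-2, against 34.01, 32.1 and 34.5 CPM in NC.

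The members among inflammatory and interferon genes leaned to opposite sides, while most genes of both lists were no members. Of 20 NF-kB and cytokine genes, 5 were higher and 1 lower, against 7.28% and 7.29% of all genes at the floor. CSF1, the macrophage growth factor, had 94.5, 84.1 and 97.8 CPM in ACSS2-KO-3, 62.2, 62.2 and 60.3 CPM in ACSS2-KO-2, against 51.1, 52.9 and 48.6 CPM in NC, and RELB, an NF-kB subunit, had 24.2, 25.8 and 30.7 CPM in ACSS2-KO-3, 17.1, 20.5 and 17.8 CPM in ACSS2-KO-2, against 16.7, 14.9 and 15.6 CPM in NC. NFKBIA and NFKBIE, inhibitors of NF-kB, and TNFAIP2 were the others. CXCL8, a neutrophil chemokine, was the lower one at 1.44, 1.699 and 1.44 CPM in ACSS2-KO-3, 3.43, 3.48 and 3.67 CPM in ACSS2-KO-2, against 5.67, 4.91 and 3.93 CPM in NC. Of 29 interferon and antigen presentation genes, 5 were lower and 1 higher. The median ACSS2-KO-2 difference was 0.03 for the NF-kB list and -0.02 for the interferon list, near the -0.01 of all genes at the floor. In ACSS2-KO-3 the medians were 0.36 and -0.09, against -0.02 for all genes. With offsets for GC content and length they were 0.08 and -0.20, against -0.07. IFIT1, an antiviral RNA sensor, had 11.4, 15.1 and 13.01 CPM in ACSS2-KO-3, 25.6, 22.4 and 23.8 CPM in ACSS2-KO-2, against 29.8, 29.4 and 29.1 CPM in NC, and IFIT3 differed from NC by -1.16 for ACSS2-KO-3 and -0.21 for ACSS2-KO-2. OAS1 had 0.391, 0.728 and 0.685 CPM in ACSS2-KO-3, 1.77, 0.656 and 1.203 CPM in ACSS2-KO-2, against 2.304, 2.13 and 2.98 CPM in NC. STAT2, a subunit of the interferon-activated factor, was at 47.9 ± 2.403 CPM in ACSS2-KO-3, 50.8 ± 1.87 CPM in ACSS2-KO-2, against 58.7 ± 2.28 CPM in NC, while TAP1, the peptide transporter, was the higher member at 102 ± 6.75 CPM in ACSS2-KO-3, 67.8 ± 3.39 CPM in ACSS2-KO-2, against 59.8 ± 4.55 CPM in NC (SD, n = 3 each).

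Signalling lists held members of both directions. Over all genes at the floor the shares were 7.28% higher and 7.29% lower. Near them were 7.69% and 7.69% for TRAIL and apoptosis, 9.09% and 4.55% for p53 targets and 9.52% and 9.52% for cyclic nucleotide genes. Of 26 genes of TRAIL and apoptosis, BAK1 and BID, which promote death as BCL2 family members, were higher, and TNFSF10 and BCL2L11, which encodes BIM of the same family, were lower. BAK1 had 77.7, 83.8 and 85.02 CPM in ACSS2-KO-3, 56.1, 62.1 and 57.2 CPM in ACSS2-KO-2, against 47.8, 48.3 and 50.1 CPM in NC, and BCL2L11 had 23.2, 21.4 and 21.1 CPM in ACSS2-KO-3, 17.5, 19.2 and 19.7 CPM in ACSS2-KO-2, against 26.8, 26.8 and 26.2 CPM in NC. Of 22 targets of p53, AEN and POLH were higher and PLK2 lower. AEN, a nuclease, had 70.6, 81.02 and 72.8 CPM in ACSS2-KO-3, 49.8, 44.97 and 47.4 CPM in ACSS2-KO-2, against 35.9, 36.1 and 36.7 CPM in NC. Of 18 MAPK feedback genes, 4 were higher and 1 lower, and with offsets for GC content and length 2 were higher and 2 lower. DUSP5, an ERK phosphatase, had 31.3, 32.1 and 37.6 CPM in ACSS2-KO-3, 26.96, 28.4 and 27.2 CPM in ACSS2-KO-2, against 18.4, 21.5 and 21.1 CPM in NC. ETV4, an ETS factor, had 23.4, 22.1 and 20.9 CPM in ACSS2-KO-3, 19.6, 17.6 and 17.7 CPM in ACSS2-KO-2, against 14.6, 16.7 and 15.2 CPM in NC, and EPHA2, an ephrin receptor, had 665, 642 and 684 CPM in ACSS2-KO-3, 429, 428 and 418 CPM in ACSS2-KO-2, against 353, 376 and 389 CPM in NC. Of 21 cyclic nucleotide genes, ADCY1 and ADCY3 were higher and PDE4B and PDE4D lower. PDE4D had 1.63, 2.31 and 1.57 CPM in ACSS2-KO-3, 3.66, 3.09 and 4.45 CPM in ACSS2-KO-2, against 4.86, 5.43 and 4.94 CPM in NC. Lysosome and autophagy genes gave 4 higher and 1 lower of 31, with SQSTM1, the autophagy receptor p62, at 774, 777 and 821 CPM in ACSS2-KO-3, 523, 525 and 529.7 CPM in ACSS2-KO-2, against 446, 458 and 484 CPM in NC.

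Histone acetylation genes, which include the enzymes that spend acetyl-CoA on chromatin, gave 1 higher and 4 lower members of 33. KAT6B, an acetyltransferase, had 21.1, 24.9 and 21.2 CPM in ACSS2-KO-3, 39.7, 39.9 and 37.4 CPM in ACSS2-KO-2, against 42.5, 42.8 and 44.2 CPM in NC. KAT2B, the acetyltransferase PCAF, had 30.5, 35.4 and 29.4 CPM in ACSS2-KO-3, 38.3, 34.7 and 39.1 CPM in ACSS2-KO-2, against 39.99, 42.5 and 41.4 CPM in NC. HDAC5, a deacetylase, had 11.7, 12.9 and 12.9 CPM in ACSS2-KO-3, 19.99, 19.2 and 17.9 CPM in ACSS2-KO-2, against 22.05, 21.1 and 22.7 CPM in NC. SIRT1, a NAD-dependent deacetylase, was at 51.1 ± 4.95 CPM in ACSS2-KO-3, 59.8 ± 1.71 CPM in ACSS2-KO-2, against 64.2 ± 3.01 CPM in NC, and BRD2, a reader of acetylated histones, was the higher member at 278 ± 13.5 CPM in ACSS2-KO-3, 218 ± 5.73 CPM in ACSS2-KO-2, against 203 ± 9.22 CPM in NC (SD, n = 3 each). The differences in ACSS2-KO-2 were at most 0.20 in size on the log2 scale for HDAC5, KAT6B and KAT2B. Taking all 35 lists, 115 of the 761 genes at the floor were higher and 70 lower, against 7.28% and 7.29% of all genes.

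Abundant transcripts were among the members as well. EEF2, the elongation factor that moves the ribosome, had 2200.2, 2099 and 2395 CPM in ACSS2-KO-3, 1578, 1619 and 1569.6 CPM in ACSS2-KO-2, against 1342, 1454 and 1500.4 CPM in NC. MT-RNR2, the large ribosomal RNA of mitochondria, had 6195, 6110.4 and 7285 CPM in ACSS2-KO-3, 8159.6, 7928 and 7432 CPM in ACSS2-KO-2, against 9109.6, 8427 and 8556 CPM in NC. For MT-RNR2 the highest ACSS2-KO-2 value lay just under the lowest NC value.

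The difference between the knockouts uses no NC value and was tested in edgeR over 15811 genes. By that test 9755 genes (61.7%) differed, 4936 (31.2%) being higher and 4819 (30.5%) lower in ACSS2-KO-3; with plain CPM the split was 3233 higher and 6276 lower. Plain CPM moved the median ACSS2-KO-3 difference from NC over all genes at the floor to -0.18, against -0.02 with TMM factors. Of 1030 higher members, 769 (74.7%) were higher still in ACSS2-KO-3, 18 were lower and 243 did not pass, against 34.6% higher among all tested genes at the floor. Of 1030 lower members tested, 567 (55.05%) were lower still in ACSS2-KO-3, 22 were higher and 441 did not pass, against 30.6% lower. The rule itself removes genes whose ACSS2-KO-3 values cross to the other side, so these shares are not independent of it. Without NC replicate 3, 1239 higher and 894 lower members differed between the knockouts.

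A few higher members were nearer to NC in ACSS2-KO-3. ZNF503, a zinc finger repressor, had 4.18, 4.86 and 3.902 CPM in ACSS2-KO-3, 13.2, 15.2 and 13.8 CPM in ACSS2-KO-2, against 2.74, 3.62 and 3.57 CPM in NC. FAM84B had 16.8, 13.2 and 16.6 CPM in ACSS2-KO-3, 36.6, 39.3 and 42.9 CPM in ACSS2-KO-2, against 12.2, 10.9 and 10.1 CPM in NC. Both had values in ACSS2-KO-3 just above the NC range, and the knockouts differed by -1.70 ± 0.14 and -1.36 ± 0.10 (log2, SE; edgeR adjusted p = 3.52e-11 and 2.28e-12). With offsets ZNF503, FAM84B and TRIP6 were no longer members. EN2, a homeobox factor, differed from NC by 0.67 for ACSS2-KO-3 and 1.96 for ACSS2-KO-2, and FOXC1, a forkhead factor, by 0.56 for ACSS2-KO-3 and 1.01 for ACSS2-KO-2. Among lower members, CD24, a surface sialoglycoprotein, differed by -0.47 for ACSS2-KO-3 and -1.31 for ACSS2-KO-2, and HHIPL2 by -0.73 for ACSS2-KO-3 and -1.63 for ACSS2-KO-2.

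At the other extreme, 3 lower members lay far below NC in ACSS2-KO-3 and nearer to NC in ACSS2-KO-2. ZMAT1, a zinc finger protein, had 1.04, 1.58 and 1.78 CPM in ACSS2-KO-3, 15.6, 10.8 and 14.9 CPM in ACSS2-KO-2, against 18.1, 16.99 and 16.1 CPM in NC. SLITRK6, a neuronal transmembrane protein, had 0.522, 0.728 and 0.548 CPM in ACSS2-KO-3, 5.03, 4.27 and 5.17 CPM in ACSS2-KO-2, against 7.91, 7.24 and 8.21 CPM in NC. AC007842.1, a processed transcript, had 3.98, 4.73 and 4.18 CPM in ACSS2-KO-3, 28.3, 25.5 and 26.2 CPM in ACSS2-KO-2, against 29.1, 32.1 and 29.3 CPM in NC. The ACSS2-KO-2 values of ZMAT1 and AC007842.1 stood just under NC, whereas those of ACSS2-KO-3 were several times lower. Their differences were -3.23 ± 0.18, -2.99 ± 0.24 and -2.63 ± 0.11 (log2, SE; edgeR adjusted p = 2.68e-14, 2.00e-11 and 4.46e-17).

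Members at the floor show what the rule keeps and drops. UCN2, a urocortin, was just inside with 1.76, 1.27 and 1.51 CPM in ACSS2-KO-3, 1.26, 1.51 and 1.38 CPM in ACSS2-KO-2, against 0.8097, 0.969 and 1.25 CPM in NC. The lower AC092821.3 was just inside with 0.652, 0.486 and 0.274 CPM in ACSS2-KO-3, 0.343, 0.197 and 0.661 CPM in ACSS2-KO-2, against 1.25, 0.969 and 0.833 CPM in NC, as was AC005829.1 with 0.652, 0.486 and 0.205 CPM in ACSS2-KO-3, 0.857, 0.656 and 0.541 CPM in ACSS2-KO-2, against 1.18, 0.969 and 0.893 CPM in NC. CA2, a carbonic anhydrase, was just outside with 2.15, 2.12 and 2.05 CPM in ACSS2-KO-3, 3.94, 4.99 and 4.45 CPM in ACSS2-KO-2, against 0.934, 0.84 and 1.01 CPM in NC, and ADAP1 with 1.5, 1.52 and 1.37 CPM in ACSS2-KO-3, 2.11, 1.05 and 1.08 CPM in ACSS2-KO-2, against 0.997, 1.03 and 0.833 CPM in NC. COL22A1 was just outside on the lower side with 0, 0.0607 and 0.205 CPM in ACSS2-KO-3, 0.343, 0.328 and 0.481 CPM in ACSS2-KO-2, against 1.06, 1.099 and 0.833 CPM in NC, and PGM5P2 with 0.718, 0.243 and 0.342 CPM in ACSS2-KO-3, 0.742, 0.656 and 0.782 CPM in ACSS2-KO-2, against 0.872, 1.23 and 0.893 CPM in NC. The genes outside also had all 6 knockout values on the same side of NC but averaged under 1 CPM in NC.

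Higher and lower members differed in GC content, which the rule did not use. The longest transcript had a median GC content of 54.2% in higher members and 45.8% in lower members, against 48.5% over all genes at the floor. Transcripts under 40% GC made up 2.72% of higher, 22.1% of lower and 15.8% of all genes. Transcripts of at least 60% GC made up 28.3%, 11.3% and 15.2%. Over all genes the median difference from NC went with GC content in ACSS2-KO-3, being -0.86 under 40% and 0.26 at or above 60%, and was about 0 in every bin in ACSS2-KO-2. Offsets for GC content and length left 750 of the 1030 higher and 828 of the 1031 lower members in place, added 330 and 545 and turned none. Of the 185 members that the gene lists held, 157 stayed and 28 left. Beside those already given, KLF2, RELB, ETV4, SIRT1, EPCAM, HSD17B7, ADCY3, COL6A1, SERPINE2, MCM5 and RPL13 were among the 28. With them the median higher member differed by 0.35 for ACSS2-KO-3 and 0.17 for ACSS2-KO-2. The part of GC content in the membership was otherwise not tested. Median transcript length was 3554 bases in higher, 3554.5 in lower and 3445 in all genes.

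**Figure D5:**
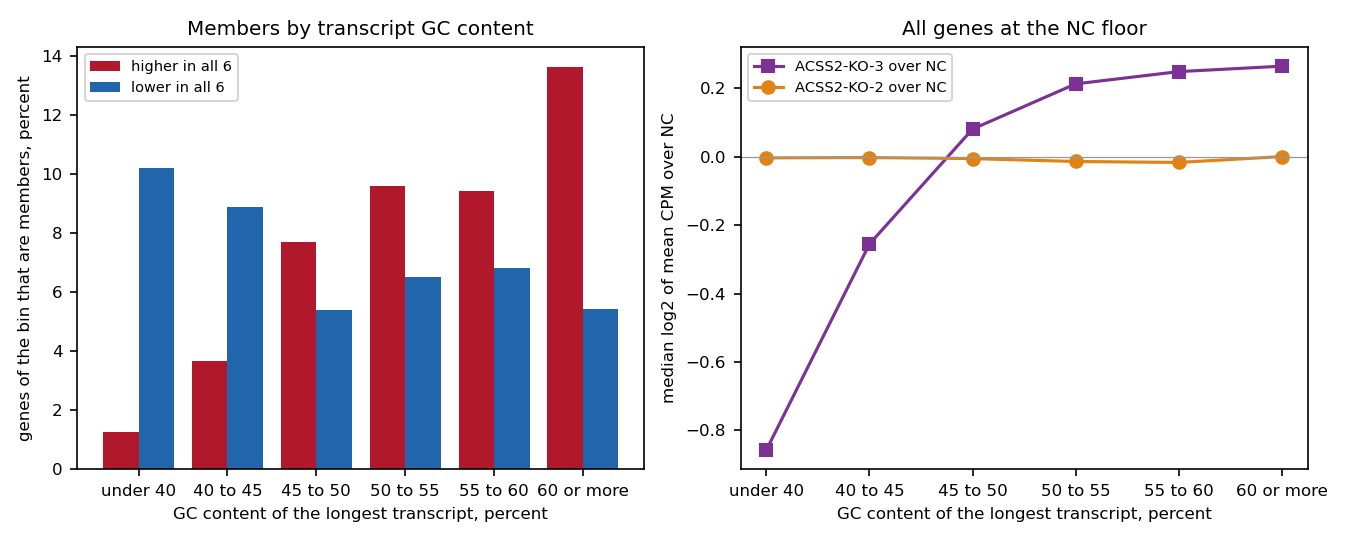
Left, the share of genes in each bin of transcript GC content that were higher (red) or lower (blue) members; right, the median log2 difference from NC over all genes of the bin in ACSS2-KO-3 and ACSS2-KO-2. The higher share climbs from 1.25% under 40% GC to 13.6% at or above 60%, and the ACSS2-KO-3 line climbs with it while the ACSS2-KO-2 line stays flat.

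Higher members were protein-coding in 97.4% of cases and lower members in 82.3%, against 85.9% of all genes at the floor. LincRNA and antisense genes numbered 11 (1.07%) among higher and 96 (9.31%) among lower members, against 947 (6.70%) of all. Antisense genes cannot be told from their partners unless counting used strand, which is not stated. The median NC level was 46.0 CPM in higher, 18.9 CPM in lower and 25.6 CPM in all genes. On chromosome 20, which carries ACSS2, 63 of 385 genes were higher members (16.4%), and 70 (18.2%) with offsets. Chromosome 22 followed with 14.7%, or 11.9% with offsets, and no other chromosome exceeded 10.9%. Lower members made up between 3.65% of genes on chromosome 14 and 10.1% on chromosome 10 of the nuclear chromosomes.

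In promoters, GC boxes were found in 73.3% of 789 higher members and 60.0% of 695 lower members with a RefSeq promoter, against 66.6% of 10042 promoters. Median promoter GC content was 68.0%, 64.0% and 65.2% in the same order. The CRE motif, seen in FOS and EGR1, was present in 31.3% of higher, 25.6% of lower and 28.9% of all promoters. The hypoxia core was present in 21.2% of higher, 22.4% of lower and 23.2% of all, and the TATA box in 5.32%, 7.19% and 5.28%. AP-1 matches were present in 3.80% of higher, 4.89% of lower and 4.28% of all promoters, E-boxes in 10.3%, 9.64% and 8.64%, CCAAT boxes in 35.1%, 34.2% and 34.1%, and ETS cores in 23.7%, 20.9% and 23.2%.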

How the data were processed

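Per the labels' protocols, polyadenylated RNA of 9 libraries was made into dUTP-marked, paired-end libraries. The submitters' processing notes name GRCh38, cutadapt 1.9, HISAT2 2.2.1, StringTie 2.1.6, DESeq2 and edgeR; for the counting and strand settings nothing is stated. The deposited table holds whole-number counts per gene, not scaled between libraries. Its identifiers matched GENCODE release 29.

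The membership rule was applied to CPM with TMM factors (edgeR 4.0.16, R 4.3.3). Genes passed filterByExpr (minimum count 10, total 15). One quasi-likelihood model of 9 libraries, with 6 residual degrees of freedom and 2-sided tests, gave ACSS2-KO-3 against ACSS2-KO-2. P-values were adjusted by Benjamini-Hochberg over 15811 genes, with a threshold of 0.05. DESeq2 1.42.0, limma-voom (limma 3.58.1), plain CPM, RLE factors and offsets for GC content and length were alternatives, the last from a trend per library with a span of 0.3. The code was tested on simulated data. Log2 differences from NC are ratios of mean CPM; those between knockouts are edgeR estimates.

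The members and 35 gene lists (895 genes) were chosen with earlier results of these data known. Named genes were ACSS2, BCAT1 and BCAT2, the 12 members each way with the largest smaller difference, the 3 with the highest NC level, the 3 that differed most and the 3 that differed least between knockouts, up to 3 per list, and those beside the floor. Further list members are given by their means, and other genes were named after their values were seen. A few genes counted in the lists are not reported here by name.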

Additional observations from a re-analysis of the deposited data

Results flagged for a closer look

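Among the named genes, 80 differed between ACSS2-KO-3 and ACSS2-KO-2 in the edgeR test (adjusted p under 0.05 over all tested genes), which set them apart here because the knockouts' effects were then unequal. All values are log2 differences, ACSS2-KO-3 over ACSS2-KO-2, and no explanation was tested.

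Of the higher members with the largest smaller difference, values were -2.31 for GLUL, -1.23 for TRIP6, -1.03 for GAL, -0.48 for NPTX1 and -0.40 for MAN1A1, and on the positive side 0.43 for ID2 and 0.41 for VGF. ZNF503 and FAM84B stood at -1.70 and -1.36. Cell cycle and replication genes gave 0.79 for CDC25A, 0.79 for CDC20, 0.83 for E2F2, 0.78 for CDT1, 0.58 for POLD1 and 0.55 for MCM4. Genes of ribosome making and translation gave 0.81 for URB2, 0.83 for BOP1, 0.60 for RRS1, 0.49 for EEF2, 0.40 for RPL8 and 0.37 for RPS15. Chaperones gave 0.54 for HSPA8, 0.32 for HSP90AB1, 0.17 for HSPA1B, 0.73 for SDF2L1, 0.21 for HSPA5 and 0.18 for PDIA6. Signalling and surface genes gave 0.72 for AXL, 0.64 for EPHA2, 0.75 for EFNB2, 0.58 for CSF1, 0.54 for RELB, 0.29 for DUSP5 and 0.27 for ETV4. Other higher members gave 0.89 for DOHH, 0.29 for SMOX, 0.59 for SQSTM1, 0.23 for ATP6V1B2, 0.44 for SLC36A1 and 0.41 for ECI1, and 0.66 for AEN, 0.33 for POLH, 0.49 for BAK1, 0.24 for DSP and 0.23 for TRIB3.

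Of the lower members, the most negative values were -3.23 for ZMAT1, -2.99 for SLITRK6, -2.63 for AC007842.1 and -2.55 for BCAT1. ACSS2 itself gave -0.80. Secreted and immune genes gave -1.43 for TNFSF10, -1.39 for INHBA, -1.20 for CXCL8, -1.02 for OAS1, -0.86 for IFIT1, -0.57 for COL1A1 and -0.30 for TGFBI. Metabolic genes gave -0.91 for ALDOC, -0.88 for SAT1, -0.73 for PDK1, -0.70 for INSIG2, -0.56 for MUT, -0.45 for PFKFB4, -0.27 for MAT2A and -0.25 for SCD. Chromatin genes gave -0.80 for KAT6B, -0.61 for HDAC5 and -0.23 for KAT2B. Hypoxia targets gave -0.38 for HILPDA, -0.37 for DDIT4 and -0.16 for BNIP3. The others gave -1.01 for PDE4D, -0.61 for DSC2, -0.33 for EFNA1, -0.26 for MT-RNR2 and -0.18 for S100A4. On the positive side, nearer to NC in ACSS2-KO-3, stood 0.33 for MMP2 and 0.22 for BCL2L11. Beside the NC floor, -2.06 for COL22A1 and -1.07 for CA2 were found.

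In 13 of these genes the call was lost when 1 library was left out. The adjusted p without that library reached 0.23 for ID2 and MAN1A1, 0.224 for OAS1 and 0.118 for BCL2L11, and ran up to 0.0944 for INHBA, 0.0896 for COL22A1, 0.0816 for KAT2B, 0.0805 for S100A4, 0.0748 for TRIB3, 0.0692 for BNIP3, 0.069 for HSPA1B, 0.066 for NPTX1 and 0.0574 for DSP in edgeR.

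Calls also depended on scaling and on the tool: 24 of the 80 genes lost theirs, or turned sign, under offsets, plain CPM or DESeq2. BCL2L11, DSP, HSPA1B, ID2, INHBA, MAN1A1 and TRIB3 were among both these and the 13 above. With offsets for GC content and length 13 kept their sign but no longer passed, at 0.13 for ID2, 0.045 for VGF, -0.24 for MAN1A1, 0.18 for RELB, 0.089 for PDIA6, 0.078 for ECI1, 0.040 for RPS15, -0.82 for INHBA, 0.0037 for MMP2, -0.049 for CXCL8, -0.15 for PDK1, 0.17 for BCL2L11 and -0.11 for MT-RNR2, and DSC2, DUSP5, ETV4, HSPA1B, INSIG2, MUT, SMOX and TRIB3 turned sign. With plain CPM 11 no longer passed, at 0.27 for ID2, 0.24 for VGF, 0.0041 for HSPA1B, 0.13 for DUSP5, 0.080 for DSP, 0.11 for ETV4, 0.018 for PDIA6, 0.068 for ATP6V1B2, 0.052 for HSPA5, 0.072 for TRIB3 and 0.059 for BCL2L11. In DESeq2 ID2, MAN1A1 and BCL2L11 no longer passed, with adjusted p of 0.0958, 0.0682 and 0.0546. With RLE factors and with the replicate block none of the 80 calls was lost.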

How the results depend on the processing

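Membership was counted under 4 scalings, 3 floors, 1 stricter gap and with each library left out. The counts of higher and lower members were 1006 and 1184 with plain CPM, 1232 and 904 with RLE factors, 1080 and 1373 with offsets for GC content and length, 1179 and 1343 with no NC floor and 942 and 811 with a floor of 5 CPM. They were 45 and 123 when the nearest knockout and NC values had to be at least 1.2-fold apart. Leaving out 1 library at a time gave 1054 to 1634 higher members and 1060 to 1610 lower ones, of which 741 to 1239 and 543 to 894 differed between the knockouts, and 9109 to 9890 genes in all. The highest member counts came without NC replicate 3. In DESeq2, 754 higher and 556 lower members differed between the knockouts, in limma-voom 787 and 583.

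Signs turned in few named genes. With plain CPM the ACSS2-KO-3 difference from NC was -0.0032 for KRT19 and -0.0017 for PCCB, and PCCB was at -0.15 between ACSS2-KO-3 and ACSS2-KO-2. With offsets that difference between the knockouts was -0.22 for BCAT2, -0.18 for HSPA1B, -0.046 for DUSP5, -0.066 for SMOX, -0.080 for ETV4, -0.12 for TRIB3, -0.29 for EGR1, -0.19 for NUPR1, -0.29 for SNAI1, -0.23 for ENO2, -0.27 for CHAC1, 0.065 for DSC2, 0.24 for INSIG2 and 0.013 for MUT, and the ACSS2-KO-3 difference from NC was -0.15 for KRT19 and 0.012 for INSIG2. With offsets BCAT2, HSPA1B, EGR1, NUPR1, SNAI1, ENO2 and CHAC1 passed the edgeR test as lower in ACSS2-KO-3 than ACSS2-KO-2 (adjusted p from 0.00327 to 0.0349). PCCB passed it with plain CPM (edgeR adjusted p = 0.0392). The cause of these turns was not tested. For GOLGA8R, ACSS2-KO-3 without its replicate 1 had no count, so no difference was computed. The RLE setting for named genes, the offsets by list and the sum of genes at 0 counts in NC were chosen after seeing the data.

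The replicate numbers were checked for pairing: the 9 residual correlations of same-numbered libraries lay between -0.0513 and 0.0846 and none was over 0.1. No strong pairing was seen. Such a check cannot exclude a shared culture or preparation, and how the replicates were made is not stated. With the replicate block 784 higher and 585 lower members and 9746 genes in all differed between the knockouts. Depth limits the genes near 1 CPM, where 3 counts are 0.171 to 0.205 CPM.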

Other observations

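Members that lay nearer to NC in ACSS2-KO-3 than ACSS2-KO-2 numbered 76 higher and 142 lower. For 18 of the higher and 22 of the lower ones the knockouts differed in the edgeR test (adjusted p under 0.05). With offsets for GC content and length 15 of the 18 but 4 of the 22 kept that call, and the sign turned with a call for RPL5 among the higher and for CAPG and PLOD1 among the lower ones. The genes given here were chosen after their values were seen. FHL1, a LIM-domain protein, differed from NC by 0.22 for ACSS2-KO-3 and 0.69 for ACSS2-KO-2, CLDN1, a tight junction protein, by 0.11 for ACSS2-KO-3 and 0.43 for ACSS2-KO-2, and EPAS1, the HIF-2 alpha subunit, by 0.25 for ACSS2-KO-3 and 0.50 for ACSS2-KO-2 (log2). Of the lower ones, SGK1, a kinase induced by glucocorticoids, differed by -0.10 for ACSS2-KO-3 and -0.44 for ACSS2-KO-2, HTRA1, a secreted serine protease, by -0.29 for ACSS2-KO-3 and -0.65 for ACSS2-KO-2, and CTSH, a lysosomal cathepsin, by -0.12 for ACSS2-KO-3 and -0.40 for ACSS2-KO-2. With offsets the log2 difference of ACSS2-KO-3 over ACSS2-KO-2 was -0.040 for CLDN1, 0.017 for HTRA1 and -0.024 for CTSH, none of which passed (edgeR adjusted p = 0.603, 0.907 and 0.775), while SGK1, FHL1 and EPAS1 kept theirs. Over all members, 954 of 1030 higher (92.6%) and 889 of 1031 lower (86.2%) had the larger difference in ACSS2-KO-3, against 83.8% of all genes at the floor.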
